A study of Mus musculus with 2 samples.

Results

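The 4 mammalian Hox clusters, Hoxa, Hoxb, Hoxc and Hoxd, were examined for peaks of the transcription factor Myb in a ChIP-Seq experiment on mouse bone marrow. A peak was taken as a member when its summit lay between 100 kb before the first and 100 kb after the last of the 38 Hox genes analysed here, cluster by cluster, in the mm10 genome build with GENCODE vM21 gene models. Of the 25793 peaks of the series, 29 met this rule, with 22 in the Hoxa window, 4 in the Hoxb window, 0 in the Hoxc window and 3 in the Hoxd window. The 38 genes are not every mouse Hox gene: those of Hoxa run from Hoxa2 to Hoxa13, and every count, share and length given for Hoxa, and its part in those for all clusters, is for this stretch. All 29 peaks had a q-value of at most 0.05, as did 92.8% of all peaks.

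The cells came from the bone marrow of WT mice and had been depleted of lineage-positive cells (Lin-, stated purity above 80%), which enriches for hematopoietic stem and progenitor cells (HSPCs). There were 2 samples, both labelled with this genotype and with no treatment named in the labels: 1 library precipitated with an antibody against Myb and 1 library precipitated with rabbit IgG. The authors used the IgG library as the control when calling peaks in the Myb library, so that there was 1 peak list and no replicate. In the study's methods, the mice called WT carry floxed *Ep300* alleles without Cre and were given poly(I:C), an inducer of interferon, like the deleted ones, and whether this holds for these samples is not stated in the labels. The labels give neither the age nor the number of mice, and a peak list holds no marker levels against which the cell type could be checked. Intervals below are exact 95% intervals that cover counting error only, and nothing was measured of the variation between mice.

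Hox genes encode homeodomain transcription factors that give body segments their identity along the head-to-tail axis. They lie in each cluster in the order of their paralogue groups, from group 1 at one end to group 13 at the other, and in blood the Hoxa and Hoxb genes are the ones best known in stem and progenitor cells. Hoxa9, Hoxa10 and Hoxa7 are linked to progenitor self-renewal and to leukemia, and Hoxb4 is known for expanding hematopoietic stem cells. Myb is a transcription factor that progenitor cells need and that binds a short site with the core AAC. In the study, Myb targets were mapped to set them beside the expression changes of *Tet2*-null HSPCs that lack p300, and the *Hoxb* genes were among the loci followed there. The question asked here is where Myb peaks lay in and beside each Hox cluster of WT cells.

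Sequences are shown around 3 summits that held a strict or a looser form of the Myb site. Each run spans 50 bp on either side of the summit on the + strand of mm10 and was read from the GRCm38 reference. In the first the capitals mark the strict Myb site, which begins with CAAC or TAAC and ends with GG or TG on either strand, which 2 of the 29 summits held. In the other 2, which lacked it, the capitals mark the looser core AACNG on either strand. This core was at 10 of the 29 summits, compared with 54.3% of all summits. The first is the strongest peak beside Hoxd, the second is a peak inside the Hoxb cluster, and the last lies in the coding sequence of Hoxa9.
Beside Evx2 and Hoxd13, chr2:74652868-74652968: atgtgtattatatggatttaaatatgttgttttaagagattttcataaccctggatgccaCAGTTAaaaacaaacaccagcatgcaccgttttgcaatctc
Between Hoxb5 and Hoxb4, chr11:96311578-96311678: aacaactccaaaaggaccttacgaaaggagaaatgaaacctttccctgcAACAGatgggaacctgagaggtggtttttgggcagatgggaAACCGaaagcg
Hoxa9 coding sequence, chr6:52225673-52225773: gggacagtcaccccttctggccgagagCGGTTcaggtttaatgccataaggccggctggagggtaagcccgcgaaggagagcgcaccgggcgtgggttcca
The strict site of the first run, CAGTTA, began 10 bp after the summit.

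Myb peaks were unevenly spread over the 4 clusters. Inside Hoxa, from Hoxa2 to Hoxa13 (chr6:52162417-52260880, 98.5 kb), there were 21 peaks, and 1 more lay just beyond Hoxa13. Inside Hoxb, from Hoxb13 to Hoxb1 (chr11:96194316-96368256, 173.9 kb), there were 4, with 0 in the 100 kb on either side. Hoxc, from Hoxc13 to Hoxc4 (chr15:102921103-103036852, 115.8 kb), had 0 inside and 0 beside. Hoxd, from Hoxd13 to Hoxd1 (chr2:74668310-74765142, 96.8 kb), had 0 inside, while its 3 peaks lay beside it on the group 13 side. In all, 25 peaks were inside a cluster and 4 were beside one, each of the 4 on the group 13 side.

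**Figure D1:**
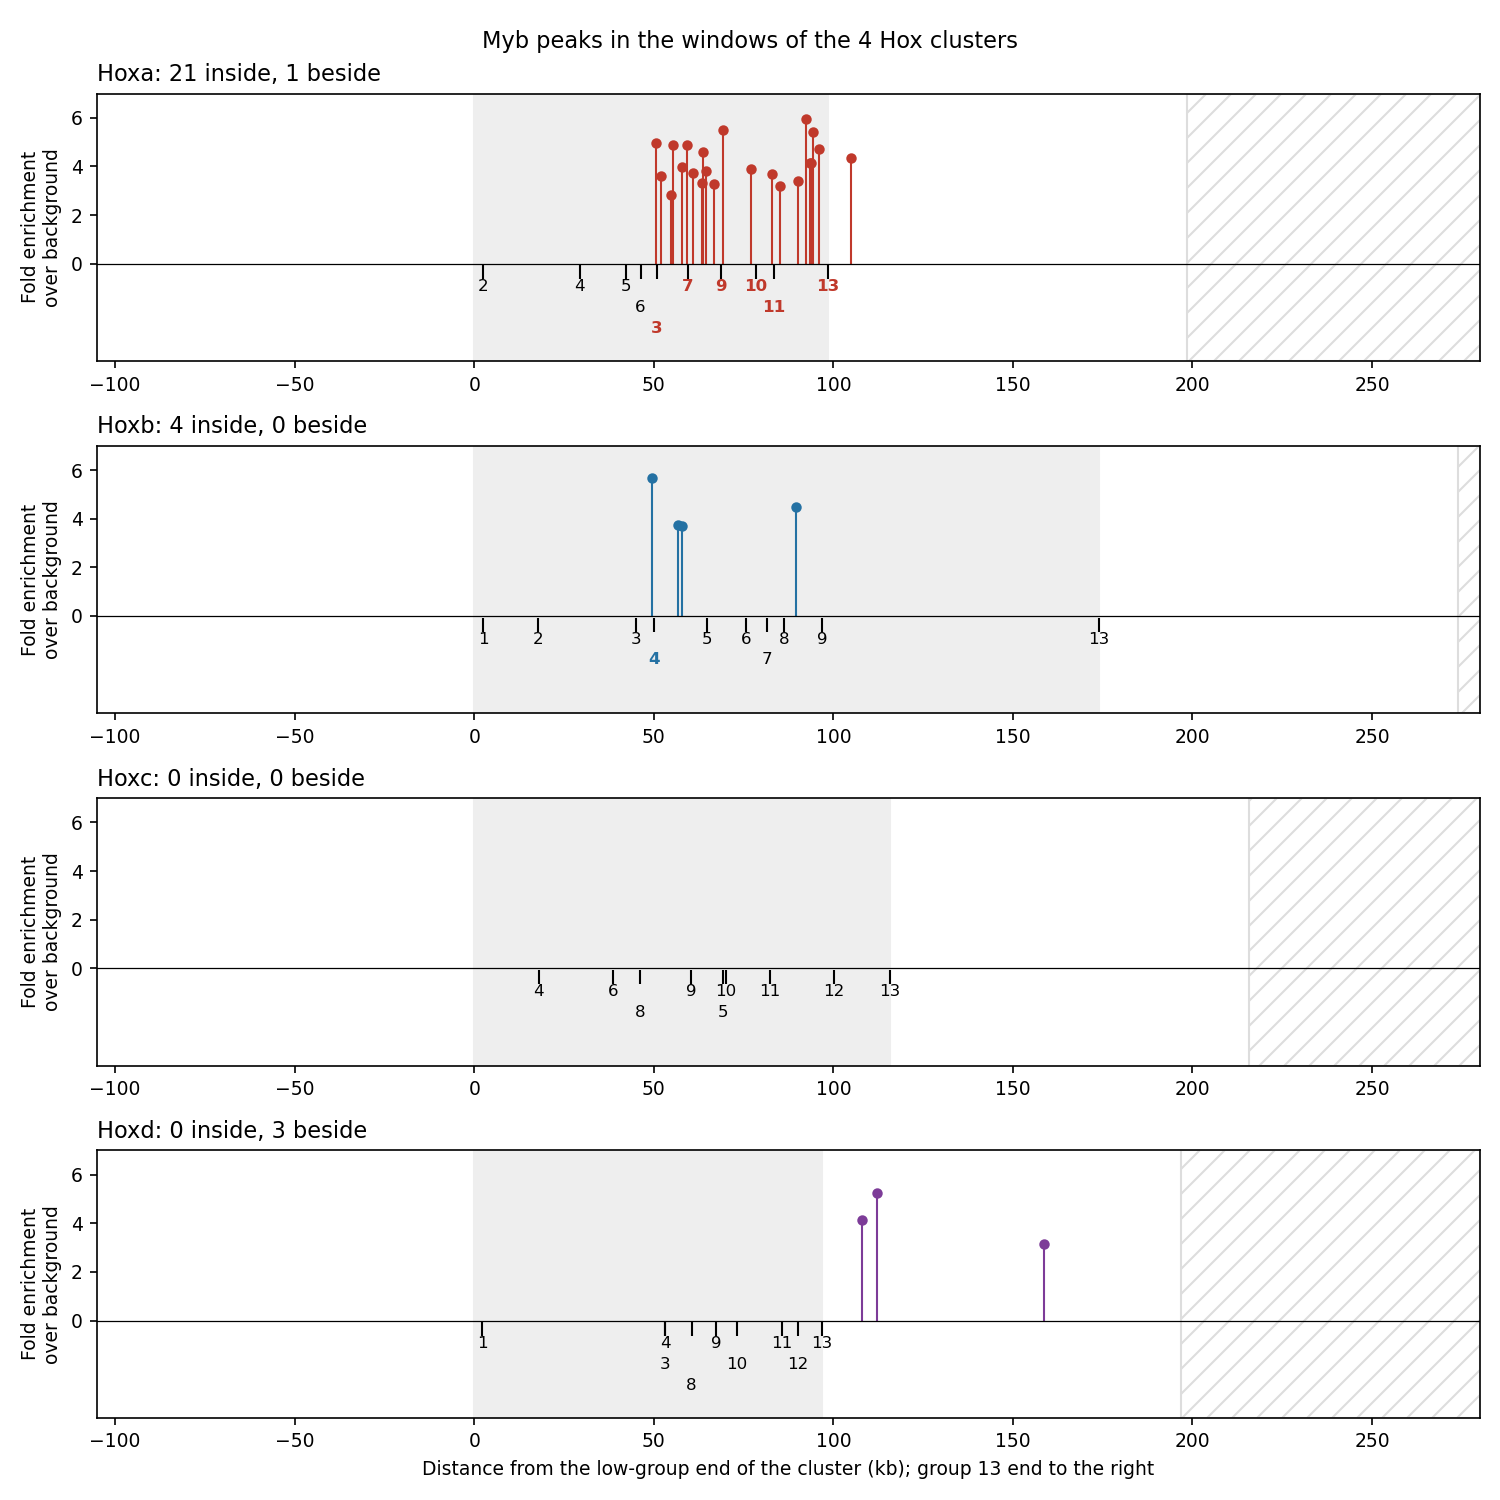
Each panel shows 1 cluster with its window on the same scale, with the distance from its low-group end in kb on the x axis and the fold enrichment of each peak over background on the y axis. Grey marks the cluster itself, ticks and numbers mark the upstream ends of the Hox genes by paralogue group, colored numbers mark genes with a summit within 3 kb of a transcript start, and hatching lies outside the window. The 21 peaks inside Hoxa fill its group 13 side, the 4 in Hoxb lie from the Hoxb9 end to Hoxb4, Hoxc is empty, and the 3 of Hoxd lie beyond Hoxd13.

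The density inside Hoxa was 213.3 peaks per Mb (132.0 to 326.0), which is 21.9 times the genome-wide density of 9.74 per Mb. Peaks covered 12.9% of the Hoxa cluster and 0.712% of the genome. Inside Hoxb the density was 23.0 per Mb (6.27 to 58.9), 2.36 times that of the genome (0.643 to 6.04), with an interval that included the genome-wide value. When the span was ended before Hoxb13, which stands apart from the rest of the cluster, the ratio was 4.24 (1.16 to 10.9), and its interval lay above the genome-wide value. For Hoxc and Hoxd a count of 0 gave upper bounds of 31.9 and 38.1 per Mb, which also lie above the genome-wide value but below the whole interval for Hoxa. Over the 4 clusters together the density was 51.5 per Mb (33.4 to 76.1), against 5.0 per Mb (1.36 to 12.8) in the flanks. Genes are packed closely in these clusters, and per protein-coding gene the ratio to the genome was 1.49 in Hoxa (0.921 to 2.28), with an interval that included 1. It was 0.340 in Hoxb (0.0927 to 0.871), 0 in Hoxc and Hoxd (upper bounds 0.349 and 0.314) and 0.519 over the 4 clusters (0.336 to 0.766), all below 1 with their whole interval. Hoxa was counted with 12 protein-coding genes, its 10 Hox genes and 2 others, of which Gm28308 overlaps Hoxa3. Over the Hox genes alone the Hoxa ratio would be higher, and whether its interval would include 1 was not determined. The genome value counts all peaks, also those far from any gene, while a cluster value counts only peaks between its first and last gene. Ratios below 1 therefore do not by themselves show fewer peaks at genes.

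**Figure D2:**
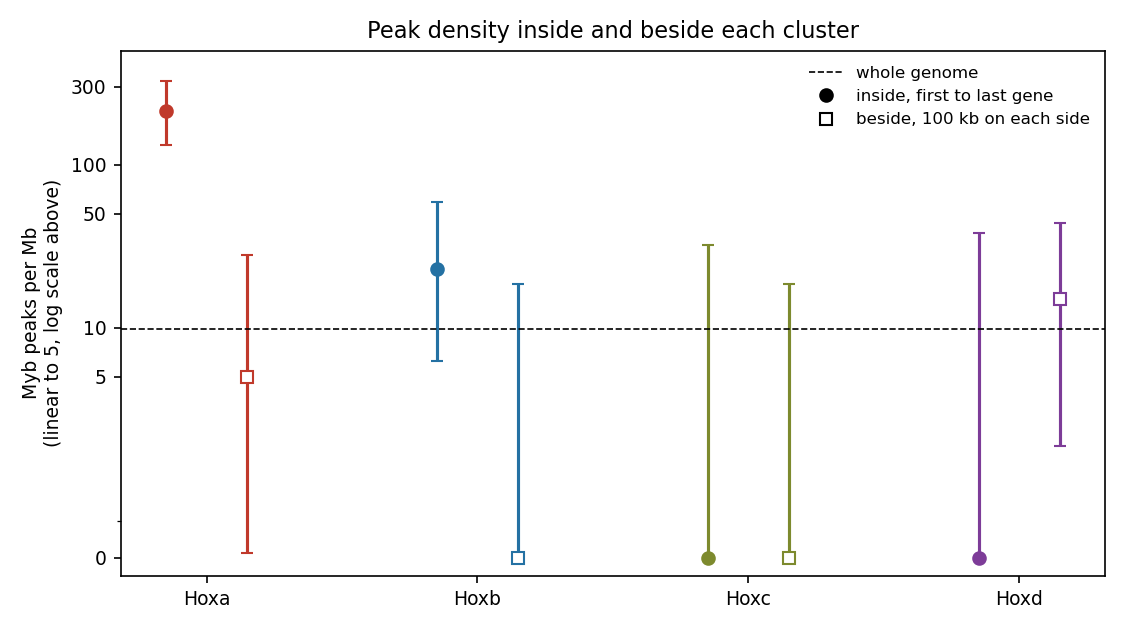
Peaks per Mb are plotted on the y axis, linear up to 5 and logarithmic above, for the inside of each cluster (filled circles) and for the 100 kb on both sides (open squares), with exact Poisson 95% intervals, and the dashed line is the whole genome. The inside of Hoxa, at 213.3 per Mb, stands above the line with its whole interval, and each of the other 7 intervals includes the line.

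When the genome was divided into stretches as long as each cluster, 6 of 26887 stretches (0.0223%) held at least the 21 peaks of Hoxa. At least the 4 peaks of Hoxb were held by 17.3% of stretches of its length. An empty stretch was common, with 0 peaks in 67.1% of stretches as long as Hoxc and in 69.7% of those as long as Hoxd. The stretch without a peak around Hoxc reached 514.8 kb (chr15:102722086-103236902), and it took in all 9 Hoxc genes. Its border peaks were 204 bp from a start of Calcoco1 and 2813 bp from a start of Cbx5, both named here after their values were seen. The stretch around Hoxd was 794.2 kb (chr2:74657541-75451751), and peak-free stretches at least as long made up 48.4% of the genome.

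The 22 Hoxa peaks followed each other so closely that they formed a single run. With successive summits at most 10 kb apart, a limit chosen after the data were seen, the run held 22 peaks over 54.3 kb and ranked 3 of 14001 such runs by its number of peaks. The 2 larger runs, named here after their values were seen, held 33 peaks at Mbnl1 and 29 peaks in a histone gene cluster. The strongest fold enrichment in these was 11.7 and 25.4, compared with 5.95 in the Hoxa run. Inside the cluster, the gap between successive Hoxa peaks ranged from 87 to 7169 bp around a median of 1097 bp. Under 500 bp separated 7 of the 20 pairs of neighbors (35.0%), and 16.5% of neighbors over the genome. With a limit of 5 kb the run was broken up, and its longest piece held 12 peaks and ranked 12, while with 20 kb it still held 22 and ranked 9.

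The peaks took up one side of Hoxa. The first summit was at the upstream end of Hoxa3 and the last one inside the cluster was in Hoxa13. The distance was 45.3 kb, or 46.0% of the cluster. The annotated Hoxa3 gene runs across Hoxa4, Hoxa5 and Hoxa6, so that the first summit lay between Hoxa6 and Hoxa7. The 50.7 kb before the first summit held the upstream ends of Hoxa2, Hoxa4, Hoxa5 and Hoxa6 and no peak. The upstream ends of the other 6 Hox genes (Hoxa3, Hoxa7, Hoxa9, Hoxa10, Hoxa11 and Hoxa13) lay between the first summit and the group 13 end. Each of these genes had a summit within 3 kb of an annotated transcript start. Several of these genes have long alternative transcripts that run through their neighbors, so that a summit can lie near the starts of more than 1 gene. This side was drawn from the peaks, with a median of 1892.5 bp between summits. A start on it was therefore likely to have a summit within 3 kb.

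At Hoxa3, a summit lay 4 bp from an annotated start (chr6:52212356-52213319, fold enrichment 4.97, 19 reads). A second peak, 1057 bp upstream of the gene, lay in an exon of the antisense RNA Hoxaas3 (fold enrichment 3.59, 14 reads). Reads are those over the summit, recovered from the deposited fold enrichment and p-value. The fold enrichment is the reads times 0.769, plus 1, over the background plus 1, so that a background value compares with 0.769 of the reads beside it. No peak of the cluster lay on the Hoxa2 side of this pair.

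Hoxa7, a group 7 gene expressed in progenitors, had 5 summits within 3 kb of any of its 5 annotated starts. Of these, 1 lay 153 bp downstream of its upstream end, in an untranslated part (chr6:52221441-52222044, 26 reads, fold enrichment 4.87), and this was the highest read number in the 4 windows. The lowest fold enrichment of the windows, 2.82, belonged to a peak in the Hoxa7 coding sequence with 17 reads over a background of 4.0. A neighboring peak in a Hoxa7 intron had 24 reads and a fold enrichment of 4.87 over a background of 3.0.

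Hoxa9 is the Hox gene most often tied to self-renewal of leukemic progenitors. It had 6 summits within 3 kb of any of its 5 annotated starts, more than any other member. Such a count can rise with the number of annotated starts, which differs between members. The peak closest to a start, at 74 bp (chr6:52225993-52226296), had 21 reads and a fold enrichment of 4.60. The peak in its coding sequence, shown above, had 16 reads and a fold enrichment of 3.33. The strongest of the 6 lay 464 bp upstream of the gene's upstream end and in an untranslated part of Hoxa10 (chr6:52230925-52232089), with 21 reads and a fold enrichment of 5.49. The widest Hox peak, 1617 bp across, also lay in the Hoxa9 gene, next to the microRNA gene Mir196b.

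Hoxa10, which acts in progenitors much like Hoxa9, had a peak of its own in an intron 1359 bp from a start, with 12 reads and a fold enrichment of 3.91. Its other summit within 3 kb was the strongest of the Hoxa9 peaks. Hoxa11, a gene of limb and uterus development, had 2 summits within 3 kb, one in its coding sequence 567 bp from a start (12 reads, fold enrichment 3.69) and one 1777 bp upstream (11 reads, fold enrichment 3.21). The latter had the lowest read number and the highest q-value of the 29, at 0.0471.

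Closer to Hoxa13, another 5 peaks lay between the 2 genes, 2 of them in the annotated transcript 9530018H14Rik. The strongest peak of the 4 windows was among them, with 20 reads and a fold enrichment of 5.95. Of the other 4, 2 had 12 reads and a fold enrichment of 4.15, 1 had 16 reads and 5.40, and 1 had 12 reads and 3.41. Hoxa13, which patterns the distal limb, had a summit in an untranslated part (15 reads, fold enrichment 4.72). This summit lay 2382 bp downstream of a start, toward the downstream end of the gene. The peak beyond the cluster lay in an exon of Hottip, a long noncoding RNA transcribed from the distal tip of Hoxa, 6516 bp upstream of Hoxa13 (chr6:52267284-52267721, 15 reads, fold enrichment 4.34).

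**Figure D3:**
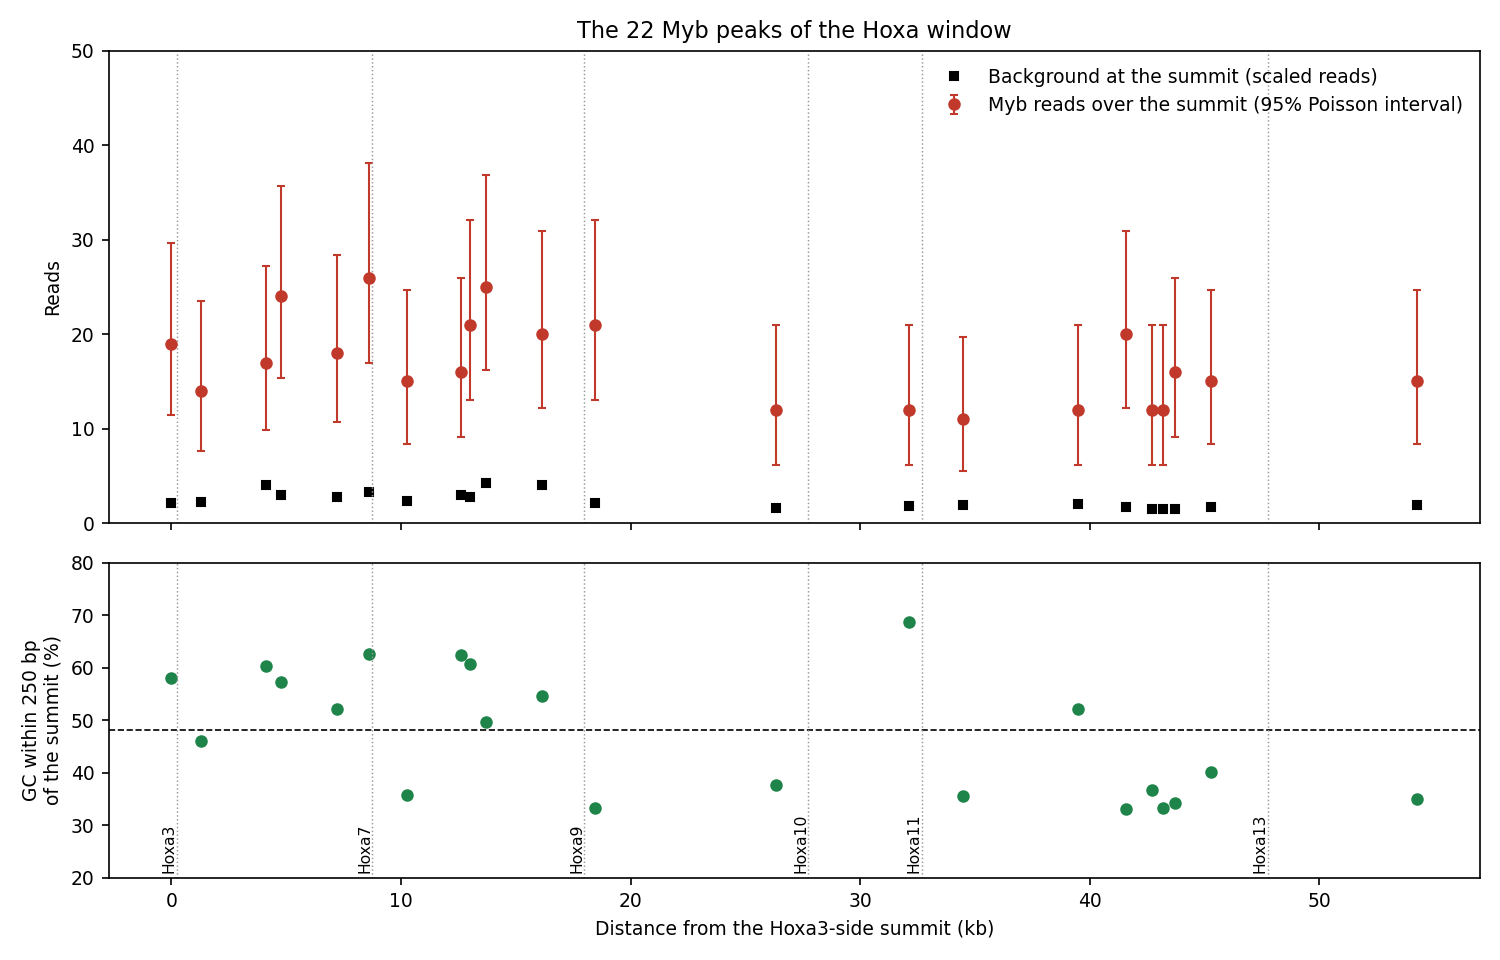
The upper panel plots, for each of the 22 Hoxa peaks, the Myb reads over the summit with their 95% Poisson interval (circles) and the background at the summit in scaled reads (squares) against the distance in kb from the Hoxa3-side summit. The lower panel plots the GC content within 250 bp of each summit, with a dashed line at the median of all peaks, 48.1%, and dotted lines at the upstream ends of 6 Hox genes. Reads, background and GC content are higher on the left, from Hoxa3 to Hoxa9, than on the right, apart from single peaks.

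The Hoxa peaks differed along the cluster in base composition and background. From the upstream end of Hoxa3 to Hoxa10, the 13 peaks had a median GC content of 54.7% (33.3% to 62.7%) within 250 bp of the summit. This division was made after the values were seen. The 9 peaks beyond Hoxa10 had a median of 35.5% (33.1% to 68.7%), and 6 of these 9 were below 40%, as were 3 of the 13 and 15.6% of all peaks. Background reads had a median of 2.73 (1.62 to 4.29) in the 13 and of 1.76 (1.46 to 2.00) in the 9. The value 1.46 was taken as the genome-wide background, and the recovery of reads was set to accept no lower background. Myb reads had a median of 19.0 (12 to 26) in the 13 and of 12.0 (11 to 20) in the 9. The median fold enrichment was 3.91 and 4.15, so the difference in reads was not seen in the ratio to background. The part of GC content and of the local background in the number of peaks was not tested.

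In Hoxb, 1 of the 10 genes had a summit within 3 kb of a start. This was Hoxb4, with a peak 490 bp downstream of its start in an untranslated part (chr11:96318648-96318881), 17 reads (9.90 to 27.2) over a background of 1.48 and a fold enrichment of 5.67. It was the strongest peak of the Hoxb window and the second strongest of all 29. A pair of peaks lay between Hoxb5 and Hoxb4, 6971 bp past a Hoxb5 start (12 reads, fold enrichment 3.71) and 6639 bp before Hoxb4 (23 reads, fold enrichment 3.74). The latter had the higher background of the pair, 4.0 reads compared with 1.76. This pair and the Hoxb4 peak lay within 8.27 kb. The remaining peak lay between Hoxb9 and Hoxb8, 3166 bp before a Hoxb8 start, with 13 reads and a fold enrichment of 4.47, and it lay within 3 kb of the Hoxb9 gene end. For Hoxb1 and Hoxb2 the nearest summit was 47.0 and 31.8 kb away, and for Hoxb13 it was 84.4 kb away.

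The 3 peaks beside Hoxd lay on the side of Evx2, a homeobox gene next to Hoxd13. The strongest (chr2:74652810-74653355) lay 6501 bp past the Evx2 start, just beyond the end of that gene, and 15392 bp from Hoxd13, with 16 reads and a fold enrichment of 5.24, and it carried the strict Myb site. A second lay in an Evx2 intron (13 reads, fold enrichment 4.14), and in the reference 96 of the bases within 50 bp of its summit were masked as repeat. The third was 61961 bp from Hoxd13, with 15 reads and a fold enrichment of 3.14. Masked bases were also found at summits elsewhere, with 64 at the strongest Hoxa9 peak and 54 at the Hoxa10 intron peak. There were 45 at the peak past Hoxb5 and 36 at the strongest peak of the 4 windows. The distance from a start to the nearest summit grew from 11.1 kb at Hoxd13 to 105.8 kb at Hoxd1. All 9 Hoxc genes were between 199.2 and 254.5 kb from the nearest summit.

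Over the 38 Hox genes, 7 had a summit within 3 kb of a transcript start (18.4%, 7.74% to 34.3%), compared with 39.9% of all 21938 protein-coding genes. A peak inside the gene or within 3 kb of it was found for 8 of the 38, the 7 and Hoxb9, compared with 46.8% of all protein-coding genes. Within 10 kb of a start the count was 14 of 38, compared with 47.3%. By cluster, 6 of 10 Hoxa genes (60.0%, 26.2% to 87.8%), 1 of 10 Hoxb genes and 0 of 9 in each of Hoxc and Hoxd had a summit within 3 kb. The interval for Hoxa thus included the share of all genes, and that for the 38 genes together lay below it.

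By paralogue group, 2 of 11 genes of groups 1 to 4 had such a summit, Hoxb4 and, with its summits between Hoxa6 and Hoxa7, Hoxa3. Of groups 5 to 8 it was 1 of 11 (Hoxa7), and of groups 9 to 13 it was 4 of 16. These 4 were the Hoxa genes of groups 9, 10, 11 and 13, while their counterparts in the other clusters had none. In group 9, the nearest summit was 0.0740 kb from Hoxa9, 7.22 kb from Hoxb9, 40.5 kb from Hoxd9 and 254.5 kb from Hoxc9. In group 4 the order was different, with 0.490 kb for Hoxb4, 21.4 kb for Hoxa4, 54.7 kb for Hoxd4 and 202.6 kb for Hoxc4. The order of the clusters thus differed between these groups.

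**Figure D4:**
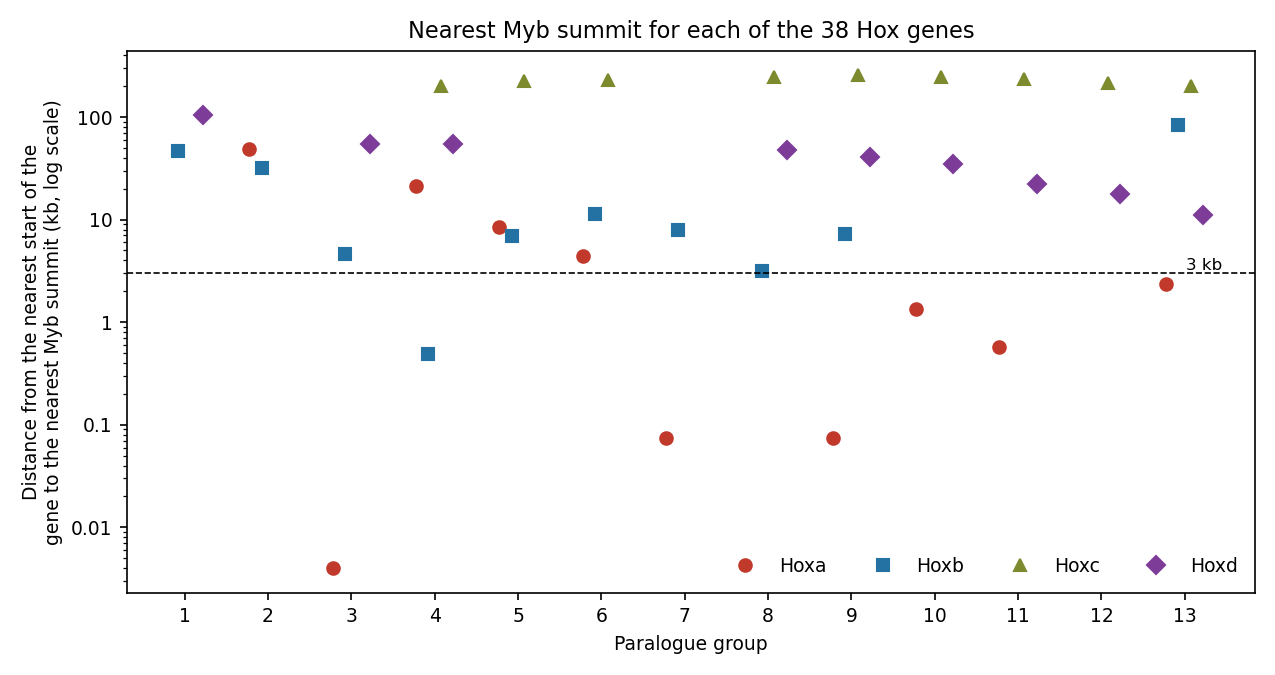
The distance in kb from the nearest start of each of the 38 Hox genes to the nearest Myb summit is plotted on a log scale against the paralogue group, with a symbol and color for each cluster and a dashed line at 3 kb. Below the line are 6 Hoxa genes and Hoxb4, and all 9 Hoxc genes lie near the top, at 199.2 to 254.5 kb.

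Hox promoters are rich in CpG, and Myb peaks were more frequent at promoters of this kind than at all promoters. Among promoters with a GC content of at least 50% and an observed-to-expected CpG ratio of at least 0.6 within 500 bp of the gene's upstream end, 64.3% of 9738 had a summit within 3 kb of a start. Of the 23 Hox genes with such a promoter, 4 did (17.4%, 4.95% to 38.8%), namely Hoxa3, Hoxa7, Hoxa11 and Hoxa13. The Hoxa13 summit lay 2382 bp downstream of a start, with a GC content of 40.1% and a CpG ratio of 0.0995 within 250 bp. At the upstream end of Hoxa13 the values were 73.8% and 0.931. Hoxc and Hoxd had 5 and 7 such promoters and 0 with a summit. Hoxa9, Hoxa10 and Hoxb4 had a summit and an upstream end outside this class. Other annotated starts were not classed. Around the Hoxa9 summit 74 bp from such a start, GC content was 60.7% and the CpG ratio 0.846 within 250 bp. Around the Hoxa10 intron summit they were 37.7% and 0.617.

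The Hox peaks were of moderate strength. Their fold enrichment ranged from 2.82 to 5.95 around a median of 4.14, compared with 4.51 over all peaks, and 6401 peaks of the list (24.8%) were stronger than the strongest Hox peak. Behind the summits lay 11 to 26 reads with a median of 16.0, compared with 18.0 over all peaks (7 to 130). At such numbers the interval is wide, as for the 20 reads of the strongest peak, 12.2 to 30.9, and the order of the Hox peaks by strength is not resolved. Hoxa, Hoxb and Hoxd peaks had a like median fold enrichment of 4.07, 4.10 and 4.14. Median background was 2.00 reads both in the Hox windows and over all peaks.

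**Figure D5:**
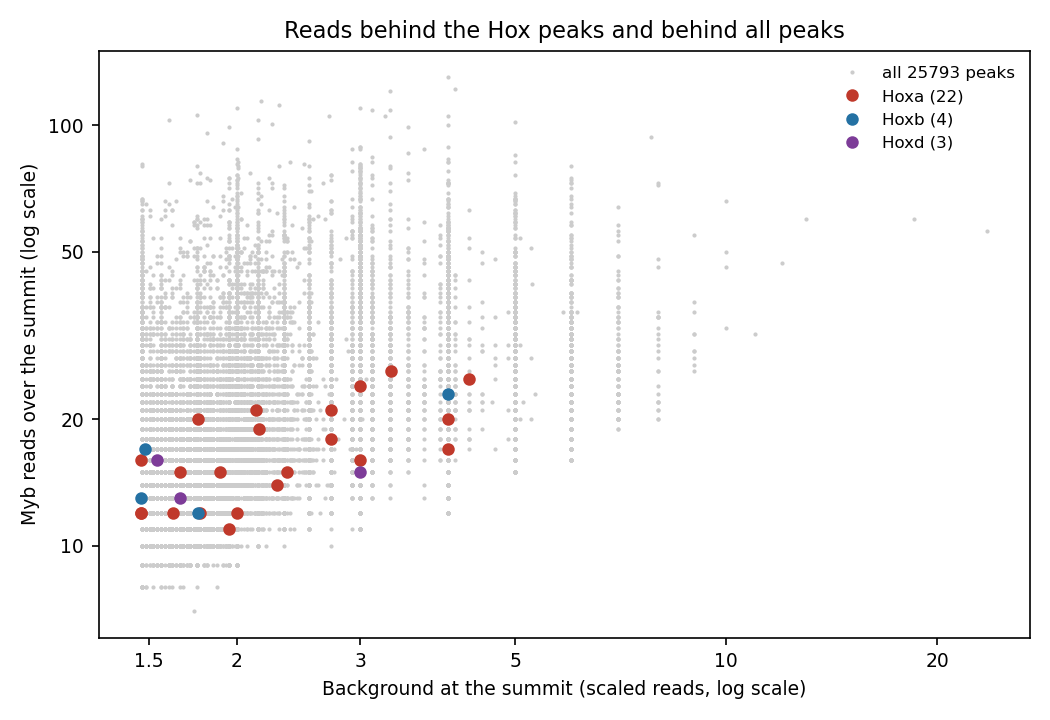
Myb reads over the summit, before scaling, are plotted against the background in scaled reads at the summit, both on log scales, for all 25793 peaks (grey) and for the peaks of the Hoxa, Hoxb and Hoxd windows (colored). The Hox peaks sit between 11 and 26 reads over backgrounds of 1.46 to 4.29, in the lower part of the range of all peaks, which reaches 130 reads.

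By position, 3 of the 22 Hoxa summits lay in coding sequence, 7 in untranslated parts, 6 in noncoding exons, 3 in introns and 3 between genes. A start of any annotated gene, noncoding ones included, was within 3 kb of 21 of these 22 summits, compared with 57.6% of all summits. Annotated genes, many of them noncoding, are packed closely in Hoxa, so that a summit placed anywhere among them could lie near a start. The share of the Hoxa sequence within 3 kb of a start was not determined. The higher share of Hoxa summits therefore does not by itself show a preference of Myb for starts. In Hoxb and Hoxd the majority, 5 of 7, lay between genes. The observed-to-expected CpG ratio within 250 bp of the summit had a median of 0.617 in the Hox windows and 0.313 over all peaks, at a median GC content of 46.1% and 48.1%.

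The strict Myb site was found within 50 bp of 2 of the 29 summits (6.90%, 0.846% to 22.8%) and of 16.7% of all summits, a share inside the interval. The looser core AACNG was found at 10 of 29 (34.5%, 17.9% to 54.3%) and at 54.3% of all summits, a share at the upper end of the interval. Sites of other factors were searched in the same windows on both strands. GATA factors, which drive erythroid and stem cell genes (AGATAA or TGATAA), had a site at 1 summit, between Hoxb9 and Hoxb8, and at 13.8% of all summits. ETS factors (CCGGAA or CAGGAA) had a site at 2, at Hoxa3 and Hoxa11, and at 17.0% of all. RUNX factors (TGTGGT) had 0, compared with 9.79% of all, and an exact interval up to 11.9% that includes it. Meis proteins, partners of Hox proteins (TGACAG), had a site at 1, at Hoxa3, compared with 8.02%. The joint site of Pbx and Hox proteins (TGATTNAT) was at 0, compared with 0.841%, and the core of the insulator protein CTCF (CNAGGNGGC) was at 0, compared with 2.01%. With 29 summits, none of the strict shares could be told apart from the share of all peaks.

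MicroRNA genes are embedded in the Hox clusters, and their products act on Hox transcripts. Mature sequences of the 5′ arm are shown in RNA letters from RefSeq (GRCm38.p6), with the seed, bases 2 to 8, in capitals. They are shown because the pairs share a seed while the distance of their genes from a Myb peak differs by cluster.
miR-196b-5p, Hoxa: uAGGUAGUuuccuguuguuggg
miR-196a-5p, Hoxb and Hoxc: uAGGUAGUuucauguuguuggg
miR-10a-5p, Hoxb: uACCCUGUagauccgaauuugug
miR-10b-5p, Hoxd: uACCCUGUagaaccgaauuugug
The seed AGGUAGU is common to miR-196a and miR-196b, and the seed ACCCUGU to miR-10a and miR-10b. Mir196b, within the Hoxa9 gene (chr6:52230081-52230165), had a summit 898 bp from its start with a fold enrichment of 3.28 (20 reads). Mir10a, upstream of Hoxb4 (chr11:96317165-96317274), was 1592 bp from the Hoxb4 summit. The genes for the same seeds in the other places were farther off, at 13575 bp for Mir196a-1 in Hoxb, 251423 bp for Mir196a-2 in Hoxc and 68876 bp for Mir10b in Hoxd. Mir615 in Hoxc was 222093 bp from a summit.

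Genes whose products work with or on the Hox genes were described by lists, each beside the 39.9% of all protein-coding genes with a summit within 3 kb of a start. Of the TALE homeodomain partners of Hox proteins, 4 of 9 had one (44.4%, 13.7% to 78.8%). The strongest peaks were at Pknox1 (chr17:31564687-31565007, fold enrichment 9.62, 38 reads) and at Meis1 (chr11:19017590-19019249, 6.69, 24 reads), the partner of Hoxa9 in leukemia. Of the activators that keep Hox genes expressed, 8 of 12 had one (66.7%, 34.9% to 90.1%). The strongest were at Mllt3 (chr4:87805887-87807205, 12.9, 40 reads), a fusion partner of the histone methyltransferase gene Kmt2a, and at Psip1 (chr4:83486276-83487505, 9.11, 29 reads), which tethers Kmt2a complexes to chromatin. Of the Polycomb genes, which repress Hox genes, 13 of 14 had one (92.9%, 66.1% to 99.8%), with the strongest at Ezh2 (chr6:47595118-47596291, 9.62, 38 reads). Over the genes with a summit, the strongest peak of each had a median fold enrichment of 5.28 for the TALE partners, 7.01 for the activators and 5.50 for the Polycomb genes, and the strongest peak in the Hox windows had 5.95. The peaks named here were chosen as the strongest of their lists. The promoter class of the listed genes was not determined, and of all genes with a CpG-rich promoter 64.3% had a summit within 3 kb.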

How the data were processed

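Myb and IgG precipitates of WT Lin- cells were compared by the authors, with 1 library per antibody. Groups came from the sample titles. Per the labels and methods, the authors trimmed reads (Cutadapt 1.15), aligned them to mm10 (BWA 0.7.13), removed duplicates (Picard), reads of low mapping quality and blacklisted regions, and called narrow peaks (MACS2 2.1.1.20160309) from pseudo-replicates, which are subsets of the reads of 1 library. The deposited fold enrichment is a ratio of Myb pileup, scaled by 0.769, to IgG background, with 1 added to each, as recovered from the rows. The deposited p-values and q-values are on the −log10 scale, and the deposited score restates the p-value and was not used. The stated q-value limit was 0.05, and 1867 deposited rows lay above it, 0 of them in the Hox windows.

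Summits were set against GENCODE vM21 and the GRCm38 reference with Python 3.11.15, pandas 2.3.3 and pysam 0.24.0, with 3 kb as the promoter window of the study's methods. A peak list records only called peaks. Total depth was not given in it, and the reads over each summit were recovered from fold enrichment and p-value with 1 scale, 0.769, which gave whole reads in 100.0% of rows (tolerance 0.002 in −log10 p). Shares have Clopper-Pearson and counts Poisson intervals (SciPy 1.17.1), which cover counting error only since PCR reads and neighboring peaks are not independent. No test was run, as there was no replicate. The procedures were tested on simulated data. All 38 Hox genes, the genes at their peaks and the 2 strongest of each list could be named, of which 1 gene, and the sequences of 2 summits, are not reported here. The members and lists were chosen with earlier results of these data known. Alternatives covered flanks, thresholds, windows and motif forms.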

Additional observations from a re-analysis of the deposited data

How the results depend on the processing

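Of 98 alternative values of 20 main results, 82 stayed within 1.5 times a count or within the counting interval. Some of these could not change, namely counts of Hox peaks at a q-value of at most 0.05, which all of them met, and counts of 0 at stricter limits. With only rows at −log10 q ≥ 5, the 4 windows held 9 peaks, 8 of them inside the clusters, with 7 in Hoxa (all inside), 1 in Hoxb (inside) and 1 beside Hoxd, and their median fold enrichment was 5.24. The density inside Hoxa was then still 16.9 times that of the genome. Flanks of 200 kb gave 8 peaks in the Hoxb window and 2 in the Hoxc window. Per protein-coding gene in place of per Mb, the ratios to the genome were 1.49 in Hoxa, 0.340 in Hoxb and 0.519 over the 4 clusters. The last 2 thus fell below 1, where the genome value also counts peaks far from any gene. Without Hoxb13 the Hoxb ratio was 4.24, above 1 with its interval. A window of 10 kb gave 15 genes with a peak and 14 with a summit near a start. The form AACNG of the motif was at 34.5% of Hox summits. The limits of 5, 10 and 20 kb on the Hoxa run were chosen after the data were seen. No paired analysis was possible because there was 1 library of each kind. The list holds called peaks alone, with 7 or more reads over the summit, so that signal below the caller's limit in Hoxc, Hoxd or the Hoxa2 side of Hoxa cannot be seen in it.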
